A study of Arabidopsis thaliana with 2 samples.

Results

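The NF-YA family of Arabidopsis thaliana was followed across 2 genotypes, wild type and ago1-27, in tissue labelled as flower buds. Only 3 of 9 listed floral genes were in the table. The wild-type levels of AP1 and LFY went against that label, at 0.0779 and 0.151 RPKM, while SEP4 was at 12.5 RPKM. The members of the family were taken by gene identifier as NF-YA1 to NF-YA10, and 8 of these 10 genes were among the 6791 rows of the table. NF-YA1 (AT5G12840) and NF-YA4 (AT2G34720) were not in the table, and their transcript levels were not analysed here. The ago1-27 plants carry a weak mutant allele of ARGONAUTE1 (AGO1), and no other allele, transgene or treatment was given for either genotype. All plants grew in soil at 20 °C in long days, with a light period of 16 h and a dark period of 8 h. Each genotype was described as 3 biological replicates, but the table held 1 RPKM value per genotype (reads per kilobase of a transcript, relative to library size). The spread between replicates is therefore unknown for every difference below, no p-value was computed, and the number of separate plants behind a value was not given. Of all rows, 1 had a ratio between 1/1.5 and 1.5, so genes with a smaller difference were nearly all outside the table.

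NF-Y is a transcription factor made of 3 subunits, NF-YA, NF-YB and NF-YC. NF-YB and NF-YC pair through histone-fold domains, and NF-YA joins that pair and contacts the CCAAT box in DNA. The microRNA miR169 is carried by AGO1 to transcripts of NF-YA genes that hold a complementary site, where it directs cleavage of the transcript. In Arabidopsis the miR169 and NF-YA pair is known from drought, nitrogen starvation, root growth and flowering.

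The mature miR169 sequences are shown because they define what a target site is. The reference genome TAIR10.1 (RefSeq) annotates 14 MIR169 loci, and these give 4 distinct mature sequences of 21 bases. They are written 5′ to 3′ in DNA letters, as the genome has them, with the seed (bases 2 to 8) in capitals.
miR169a-5p: cAGCCAAGgatgacttgccga
miR169b-5p and miR169c: cAGCCAAGgatgacttgccgg
miR169h to miR169n: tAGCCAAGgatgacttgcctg
miR169d, e, f-5p and g-5p: tGAGCCAAggatgacttgccg
The first 3 of these share the seed AGCCAAG, while the miR169d, e, f-5p and g-5p form is shifted by 1 base and has the seed GAGCCAA. The form shared by miR169h to miR169n comes from 7 loci, the most of the 4.

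Each NF-YA transcript was searched for its best ungapped match to these 4 forms, scored with a penalty of 1 for a mismatch and 0.5 for a G:U pair. Matches scoring at most 4 were called sites. The sites are shown because the family divides by them. They are written 5′ to 3′ on the transcript strand of TAIR10.1, and capitals mark the bases without a Watson-Crick pair to the best-matching form, G:U pairs included.
NF-YA1: ccggcaaAtcatTcttggctT
NF-YA9: cggcaaTtcatTcttggctTT
NF-YA2: caggcaaAtcatcTttggctC
NF-YA10: caggcaaAtcatcTttggctC
NF-YA3: AGggGaagtcatccttggcta
NF-YA8: AaggGaagtcatccttggctG
NF-YA5: AcggGaagtcatccttggctA
NF-YA6: AaggGaagtcatccttggcta
The other 2 genes had no site, and their best matches lay in the coding sequence.
NF-YA4 (best match, no site): ccgAGaaAtTaGcTAtggctA
NF-YA7 (best match, no site): cTggTaaAtcCGccAtggctg

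The reference sequence went against one description of the family. NF-YA4, NF-YA6 and NF-YA7 had been described as lacking a miR169 site, but the NF-YA6 transcript held the lowest-scoring, and so the most complementary, site of the 10 genes, with a score of 2.0. It has 2 mismatches to the miR169h to miR169n form, opposite bases 17 and 21 of the microRNA, and lies at chr3:4644334-4644354 on the plus strand. NF-YA6 is therefore described with the site-bearing genes from here on. The 8 site-bearing genes scored 2.0 to 3.0, against 5.0 for NF-YA7 and 7.0 for NF-YA4. The median best score over 27440 protein-coding loci was also 7.0. A score as low as that of NF-YA4 was found in 51.2% of loci and one as low as that of NF-YA7 in 1.57%. The best match of NF-YA7 (chr1:10804756-10804776, minus strand) lacks Watson-Crick pairs opposite bases 10 and 11, the positions between which AGO1 cuts.

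All 8 sites lay in the 3′ untranslated region (3′ UTR), within a single exon, 11 to 158 bases after the coding sequence. NF-YA9 had the site nearest to its stop codon, at 11 bases (chr3:7328380-7328400, plus strand), and NF-YA10 the most distant, at 158 bases (chr5:1986749-1986769, plus strand). The site of NF-YA2, at 95 bases (chr3:1676807-1676827, minus strand), has the same 21 letters as that of NF-YA10. Those of NF-YA3, NF-YA8, NF-YA5 and NF-YA6 hold the same stretch ccttggct near the 3′ end and pair fully with bases 2 to 8 of the best-matching form. The NF-YA1 site also pairs fully with bases 2 to 8 of its best-matching form. By coding sequence, each gene's closest relative within the family was found at 83.0% identity for NF-YA2 and NF-YA10, 78.6% for NF-YA3 and NF-YA8, 74.0% for NF-YA5 and NF-YA6, and 69.0% for NF-YA1 and NF-YA9. NF-YA4 and NF-YA7, the 2 genes without a site, were each other's closest relative at 79.7%. A site scoring at most 4 was found in 43 of the 27440 loci (0.157%), and of the 10 loci with such a site in the 3′ UTR, 8 were NF-YA genes.

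**Figure D1:**
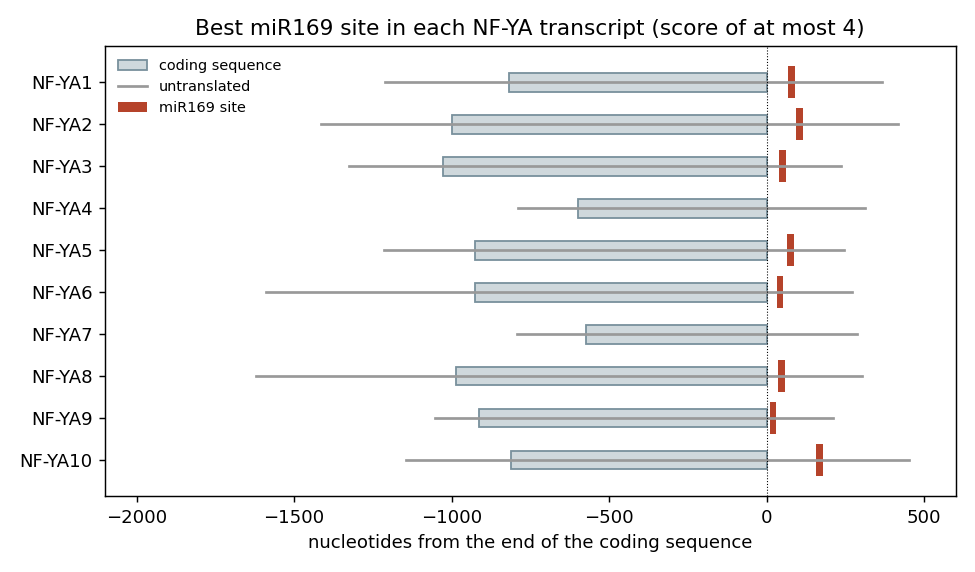
Position of the best miR169 site in each NF-YA transcript with a score of at most 4. The x axis is the distance in nucleotides from the end of the coding sequence, with 1 row per gene; every drawn site lies 11 to 158 nucleotides past that end, and NF-YA4 and NF-YA7 have none.

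Among the 8 genes in the table, the direction of the difference divided in the same way as the sites. NF-YA1, with a site, and NF-YA4, without one, had no level. All 7 site-bearing genes in the table were higher in ago1-27 than in wild type, by 2.05 to 14.1 times, and NF-YA7, the 1 gene in the table without a site, was lower by 1.74 times. A gene was counted as past the threshold when log2(RPKM + 1) differed by at least 1 and RPKM was at least 1 in either genotype. Upward, 6 of the 8 genes passed it, against 11.3% of the 6606 rows compared, and downward 0 did, against 10.5%. Of the 6, NF-YA10 met the RPKM minimum through ago1-27 alone, with 0.426 RPKM in wild type. For the direction alone, 7 of 8 genes had a ratio above 1, against 69.4% of all rows, and 1 of 8 a ratio below 1, against 30.6%. The median difference in log2(RPKM + 1) was 1.71 over the 7 site-bearing genes and 0.62 over the whole table. Each ratio below is given with its 95% exact (Clopper-Pearson) interval on the reads that 1 average library would hold. These intervals cover counting error only.

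**Figure D2:**
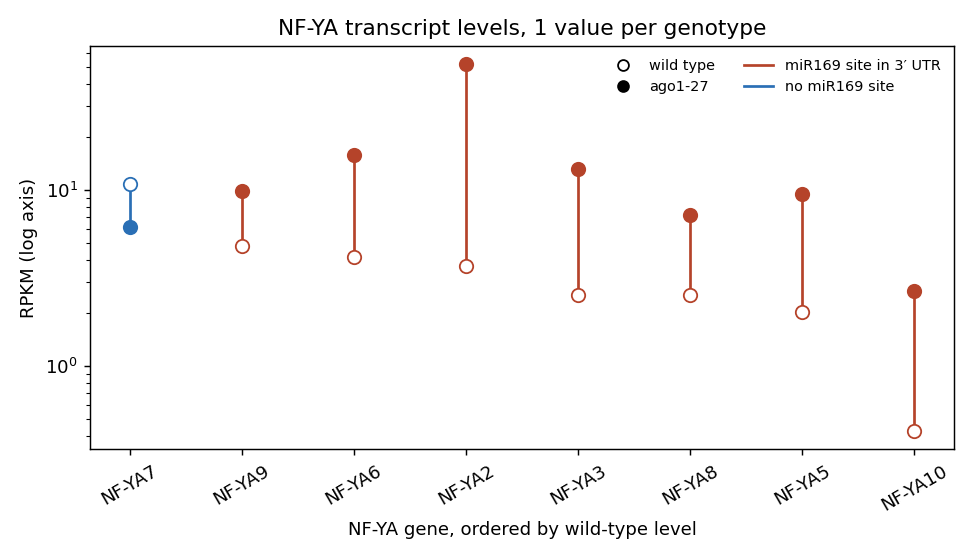
RPKM of the 8 NF-YA genes in the table (log axis), 1 point per genotype and gene, ordered by wild-type level. NF-YA7 is the highest gene in wild type and the next to lowest in ago1-27, while NF-YA2 moves from the fourth place to the first.

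NF-YA2 and NF-YA10, the pair with identical sites, had the largest ratios. Both are known from leaf and root growth, and NF-YA2 also from the activation of the flowering gene FT. NF-YA2 (AT3G05690, chr3:1676504-1679061) had 3.68 RPKM in wild type against 52.0 RPKM in the mutant, a ratio of 14.1 (11.3 to 18.0). The reads estimated for 1 library were 80 and 1141. By level it stood at place 4676 of 6791 in wild type and at place 593 in ago1-27. Its ratio was the 44th highest of the table. NF-YA10 (AT5G06510, chr5:1984823-1987064) had 0.426 RPKM in wild type against 2.66 RPKM in the mutant, a ratio of 6.25 (3.14 to 14.7) that rests on about 9 wild-type reads. It was the lowest NF-YA gene of the table in both genotypes. The intervals of NF-YA2 and NF-YA10 overlapped at the depth of 1 library. At the depth of 3 summed libraries they did not, at 12.4 to 16.2 and 4.11 to 9.54. Whether the 2 ratios differ was not tested. The interval of NF-YA2 lay above those of the other 6 genes. That of NF-YA10 overlapped those of NF-YA3, NF-YA5, NF-YA6 and NF-YA8, so its second place is not settled. By difference in log2(RPKM + 1), NF-YA10 at 1.36 was below NF-YA3 (2.01), NF-YA5 (1.80) and NF-YA6 (1.71).

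NF-YA3 and NF-YA8 act redundantly in early embryo development. NF-YA3 (AT1G72830, chr1:27405145-27408221) had 2.54 RPKM in wild type against 13.3 RPKM in the mutant, a ratio of 5.23 (4.02 to 6.86). NF-YA8 (AT1G17590, chr1:6050164-6052628) started from nearly the same wild-type level, 2.53 RPKM, and was at 7.25 in ago1-27, a ratio of 2.87 (2.104 to 3.92). The pair thus could not be told apart in wild type, where the 95% exact Poisson intervals of the levels were 1.98 to 3.23 and 1.93 to 3.29 RPKM. In ago1-27 the intervals were 11.9 to 14.7 and 6.19 to 8.44 and did not overlap. The sites of the pair have the same score of 2.5 and lie 41 and 39 bases after the coding sequence (chr1:27405638-27405658 and chr1:6050422-6050442, both on the minus strand).

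NF-YA5 and NF-YA6 are the next pair of relatives. NF-YA5, which acts in guard cells and drought resistance, is the best known miR169 target. NF-YA5 (AT1G54160, chr1:20217336-20219452) had 2.01 RPKM in wild type against 9.46 RPKM in the mutant, a ratio of 4.70 (3.23 to 6.93). Its site at chr1:20217494-20217514 on the minus strand scored 3.0, equally against all 4 mature forms. NF-YA6 (AT3G14020, chr3:4641930-4644571) had 4.16 RPKM in wild type against 15.9 RPKM in the mutant, a ratio of 3.82 (3.02 to 4.85). NF-YA6 was the second highest NF-YA gene in ago1-27. The ratios of the pair could not be told apart at this depth.

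NF-YA9, which like NF-YA1, NF-YA5 and NF-YA6 is known from pollen and embryo development, had the smallest ratio of the site-bearing genes. NF-YA9 (AT3G20910, chr3:7326355-7328581) had 4.83 RPKM in wild type against 9.91 RPKM in the mutant, a ratio of 2.05 (1.55 to 2.77). Its log2(RPKM + 1) difference of 0.90 was just inside the threshold, and it was the only site-bearing gene in the table that did not pass. The NF-YA9 site pairs best with the shifted form of miR169d, e, f-5p and g-5p. Counted on that form, it has a non-Watson-Crick pair opposite base 10. No other NF-YA site has one opposite base 10 or 11 of its own best-matching form, but this depends on the numbering. The NF-YA1 site has the same T in the same aligned place, opposite base 9 of the unshifted form of miR169b-5p and miR169c. The closest relative of NF-YA9, NF-YA1, has a site of score 2.5 at chr5:4051058-4051078 on the minus strand, 69 bases after the coding sequence, but no level in the table.

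NF-YA7 moved the other way. NF-YA7 (AT1G30500, chr1:10804450-10806428) had 10.8 RPKM in wild type against 6.20 RPKM in the mutant, a ratio of 0.574 (0.431 to 0.762). Its log2(RPKM + 1) difference of -0.71 did not pass the threshold. It was the highest NF-YA gene in wild type, where its interval of 9.07 to 12.8 RPKM lay above that of every other member. In ago1-27 it was in the seventh place of 8, above NF-YA10 alone. NF-YA4, its closest relative and the other gene without a site, acts with NF-YB and NF-YC subunits and bZIP28 in the response to stress of the endoplasmic reticulum, and had no level in the table. The contrast between genes with and without a site therefore rests on 1 gene on the second side.

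The order of the levels changed between the genotypes. In wild type it ran NF-YA7, NF-YA9, NF-YA6, NF-YA2, NF-YA3, NF-YA8, NF-YA5 and NF-YA10. The counting intervals of neighbours overlapped from NF-YA9 down to NF-YA5, and NF-YA7 and NF-YA10 stood apart from their neighbours. In ago1-27 the order ran NF-YA2, NF-YA6, NF-YA3, NF-YA9, NF-YA5, NF-YA8, NF-YA7 and NF-YA10. There NF-YA2 and NF-YA10 stood apart, at intervals of 49.1 to 55.1 and 2.03 to 3.45 RPKM. NF-YA6 and NF-YA3 overlapped each other, NF-YA3 lay above NF-YA9, and overlaps ran on through NF-YA9, NF-YA5, NF-YA8 and NF-YA7 from each gene to the next.

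The summed RPKM of the 8 genes was 31.0 for wild type and 117 for the mutant, a ratio of 3.77. For the 7 site-bearing genes the sums were 20.2 and 110, a ratio of 5.47, and without NF-YA2 they were 16.5 and 58.5, a ratio of 3.54. NF-YA7 made up 34.9% of the sum in wild type and 5.31% in ago1-27. NF-YA2 made up 11.9% in wild type and 44.6% in ago1-27. The share of NF-YA6 was nearly level, at 13.4% and 13.6%, and the share of NF-YA9 was 15.6% and 8.49%. In bulk tissue, fewer cells that express a gene and less RNA per cell cannot be told apart, and this holds for every level given here.

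**Figure D3:**
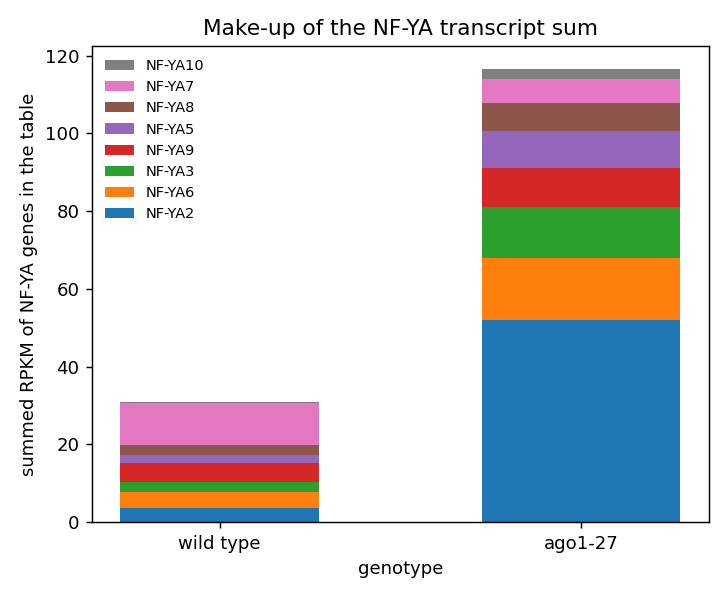
Summed RPKM of the 8 NF-YA genes in the table, stacked by gene, in wild type and ago1-27. The sum is 31.0 in wild type, with NF-YA7 as the largest share at 34.9%, and 117 in ago1-27, with NF-YA2 as the largest share at 44.6%.

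The table as a whole leaned towards higher values in ago1-27, with a median ratio of 1.62 (0.70 on the log2 scale). Genes with a ratio between 1/1.5 and 1.5 were nearly all outside the table. Both rescalings below therefore rest on rows that differ between the genotypes. They cannot tell a shift between the libraries from the make-up of the table, and their values are relative to these rows only. Relative to that median, by rescaling to the median of ratios, NF-YA2 was 8.71 times higher, NF-YA10 3.85, NF-YA3 3.22, NF-YA5 2.90, NF-YA6 2.36, NF-YA8 1.77 and NF-YA9 1.26. NF-YA7 had a rescaled ratio of 0.353. The direction of each of the 8 genes was the same on this scale and after quantile normalization. On both, 5 in place of 6 passed the threshold upward, because NF-YA8 did not, and NF-YA7 passed it downward. The shares of all rows that passed upward and downward were 3.34% and 30% under the median of ratios, against 6% and 18.4% under quantile normalization. Over all rows the split of higher and lower calls was 748 and 694 on the deposited scale, and 219 and 1970 after rescaling to the median of ratios.

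**Figure D4:**
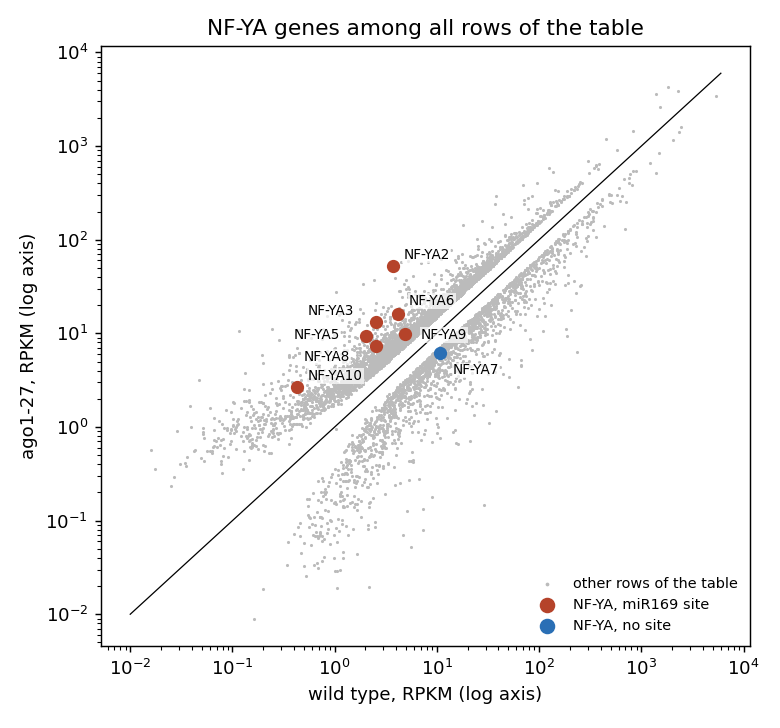
RPKM in ago1-27 against RPKM in wild type (both log axes) for all 6791 rows, with the NF-YA genes coloured by the presence of a miR169 site. The line marks equal values; the 7 site-bearing genes lie above it, and NF-YA7 lies below it at 10.8 and 6.20 RPKM.

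Several NF-YA genes overlap a neighbour, and the libraries did not keep strand, so reads from an overlap cannot be assigned to one gene. NF-YA5 shares 154 bases with AT1G54150 on the opposite strand, whose own levels were 8.86 RPKM (wild type) and 16.8 RPKM (ago1-27). NF-YA5 also overlaps a long non-coding RNA over 490 bases, and NF-YA6 another over 585 bases, neither of which was in the table. NF-YA9 shares 6 bases with AT3G20920, which was at 16.5 and 24.9 RPKM. How the overlaps bear on these ratios was not tested. No 50-base stretch of an NF-YA transcript occurred elsewhere in the genome.

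Of 10 NF-YB genes 4 were in the table, and of 10 NF-YC genes 1 was. Of these 5 genes 3 were higher and 2 lower in ago1-27, against 69.4% and 30.6% of all rows. NF-YB2, a regulator of photoperiodic flowering, had 125 RPKM in wild type against 60.7 RPKM in the mutant, 2.05 times lower, with an interval on the ratio of 0.446 to 0.532. It passed the threshold downward, and so did NF-YB7, at 1.56 and 0.271 RPKM. The NF-YB7 row equalled whole reads of 1 library per genotype. Its reads estimated from the mean library sizes instead were about 21 and 4. The interval on the ratio, 0.0471 to 0.559, comes from that estimate and not from those whole reads. NF-YB1, which raises drought tolerance when overexpressed, was at 7.97 and 12.4 RPKM, and its row too equalled whole reads of 1 library per genotype. NF-YB10 was at 9.84 and 15.9 RPKM. NF-YC10, which joins with NF-YA2 and NF-YB3 in the heat stress response, was at 9.40 and 16.2 RPKM, a ratio of 1.72 (1.40 to 2.12). None of the last 3 passed the threshold, and after rescaling to the median of ratios NF-YB1 and NF-YB10 had ratios of 0.960 and 0.997, just below 1. After quantile normalization their ratios were 1.21 and 1.28. In total 2 of 5 NF-YB and NF-YC genes passed in either direction, both downward, against 21.8% of all rows in either direction and 10.5% downward.

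**Figure D5:**
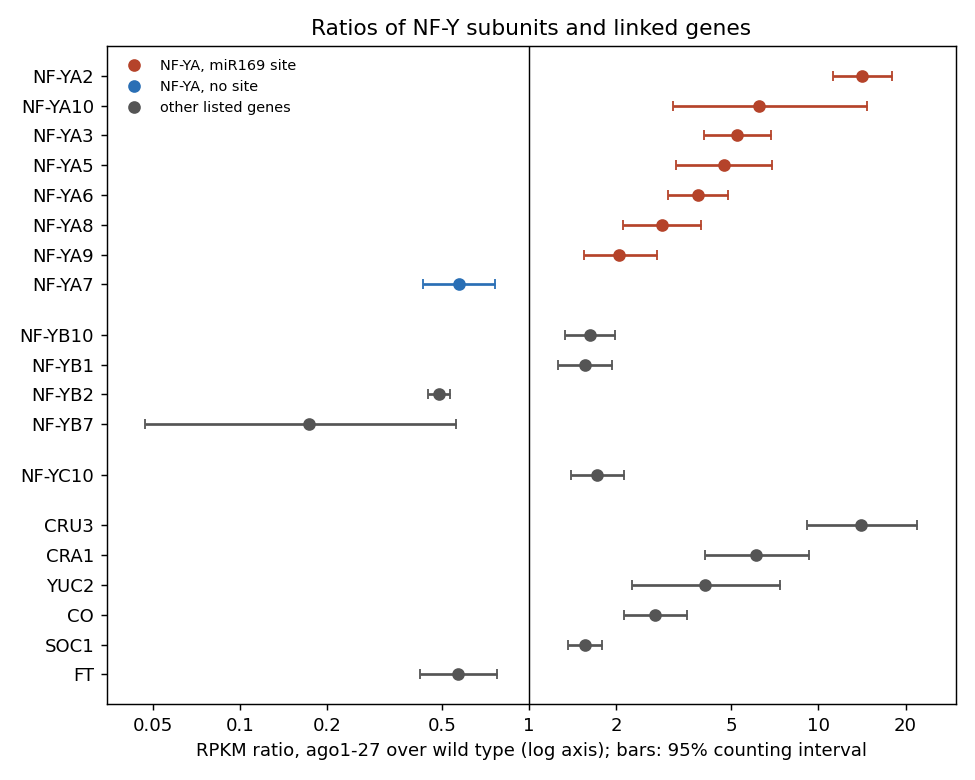
RPKM ratio of ago1-27 over wild type (log axis) for NF-YA, NF-YB and NF-YC genes and for partners or reported targets of NF-Y that are in the table; bars are 95% exact counting intervals. NF-YA2 has the highest ratio of the subunits at 14.1, and the 2 lowest are NF-YB7 and NF-YB2.

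No MIR169 locus was among the rows, 0 of 14, so the precursors of miR169 were not analysed here. AGO1, the gene mutated in ago1-27, had 53.1 RPKM in wild type against 175 RPKM in the mutant, a ratio of 3.29 (3.14 to 3.45). The ago1-27 allele changes the protein and does not remove the transcript, so this level does not check the labels.

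Of 20 partners and reported targets of NF-Y, listed from general knowledge, 6 were in the table, and 4 passed the threshold upward and 0 downward, against 11.3% and 10.5% of all rows. After rescaling to the median of ratios or quantile normalization, CO and YUC2 no longer passed, which left CRA1 and CRU3 upward. On both rescalings FT passed downward, as did 30% and 18.4% of all rows. CONSTANS (CO), the photoperiod regulator that joins NF-YB and NF-YC, had 2.73 RPKM in wild type against 7.42 RPKM in the mutant, a ratio of 2.71 (2.12 to 3.52). Its log2(RPKM + 1) difference was 1.17 as deposited, 0.61 with the median of ratios and 0.84 with quantile normalization. The flowering gene FT was at 10.5 and 5.97 RPKM, 1.76 times lower, and did not pass on the deposited scale. The difference of FT was -0.72 as deposited, -1.34 with the median of ratios and -1.06 with quantile normalization. SOC1, another flowering integrator, was at 21.2 and 33.0 RPKM, with a ratio below 1 (0.961) after that rescaling. YUC2, an auxin synthesis enzyme, was at 0.619 and 2.50 RPKM, a ratio of 4.04 (2.26 to 7.35). Its difference was 1.11 as deposited, 0.73 with the median of ratios and 0.87 with quantile normalization. The seed storage protein genes CRA1 and CRU3 were at 1.37 and 8.34 RPKM and at 1.11 and 15.6 RPKM. The 2 storage genes belong to a list of 10 seed and embryo genes, of which 5 were in the table and all 5 passed upward on the deposited scale, against 11.3% of all rows. The other genes of the 5, SESA1, SESA2 and SESA3, were at 0.130, 0.360 and 0.116 RPKM in wild type, about 1, 3 and 1 reads. They met the RPKM minimum through ago1-27 alone, at 2.57, 5.92 and 10.6 RPKM. The seed and embryo list summed to 3.10 RPKM for wild type against 43.0 RPKM for the mutant, and the embryo regulators LEC1, LEC2, FUS3 and ABI3 were not in the table. Its part in the NF-YA levels was not tested.

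Outside the family, 35 loci had a miR169 match scoring at most 4, and 14 of these were in the table. Of the 14, 8 were higher and 6 lower in ago1-27, against 69.4% and 30.6% of all rows. The threshold was passed upward by 2 and downward by 1, against 11.3% and 10.5% of all rows. Only 2 of the 35 had the match in the 3′ UTR, where all NF-YA sites lie. These 2, AT2G43490 and AT5G08630, were higher in ago1-27, at ratios of 1.58 and 1.56, against a median ratio of 1.62 over all rows.

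The CCAAT box that NF-Y binds was searched, as the letters CCAAT on either strand, from 250 bases before to 50 bases after the transcript start. It was present in 51.6% of 27444 protein-coding promoters and in 5 of the 10 NF-YA promoters, with 2 copies in NF-YA2 and 1 each in NF-YA1, NF-YA7, NF-YA9 and NF-YA10. Among rows past the threshold, 52.7% of those higher and 50.4% of those lower in ago1-27 held it. A match is a stretch of letters and not a measured binding site.

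The 3 genes whose 2 levels lay nearest to those of NF-YA2, by Euclidean distance in log2(RPKM + 1), were VSP1, CYP71B22 and PDF1.2. VSP1, a jasmonate-induced storage protein, had 4.41 RPKM in wild type against 57.3 RPKM in the mutant. CYP71B22, a cytochrome P450, was at 3.88 and 38.7 RPKM. PDF1.2, a jasmonate- and ethylene-induced defensin, was at 5.19 and 59.7 RPKM.

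The tissue label was checked against markers, of which the table held only some. Of 9 floral identity genes 3 were in the table, with AP1 at 0.0779 and 0.733 RPKM, LFY at 0.151 and 1.17 RPKM and SEP4 at 12.5 and 6.22 RPKM in wild type and ago1-27. The organ identity genes AP3, PI and AG were not in the table. The 3 listed floral genes summed to 12.7 and 8.13 RPKM. Of 4 leaf genes 2 were in the table, and RCA, the activase of the enzyme Rubisco, was at 5341 and 3390 RPKM, the highest wild-type value of all rows. The 2 leaf genes summed to 5416 and 3415 RPKM, and 3 of 4 pollen genes to 2.72 and 3.99 RPKM. None of the marker genes in the table was at 0. In wild type, AP1 and LFY stood at about 1 and 2 reads in 1 library, which goes against the label of flower buds, while SEP4 had about 215 reads. The part of tissue composition in the NF-YA levels was not tested.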

How the data were processed

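Total RNA was sequenced as 50-nt single-end reads from libraries made without strand information, per the labels' protocols. The submitters' processing notes name TopHat2 2.0.11 and TAIR10. The sources used here give neither the counter nor how rows were selected. The authors deposited 1 RPKM value per genotype, per the file headers. The deposited ratio of ago1-27 to wild type equalled the quotient of both RPKM columns within a relative 4.17e-08. The table had 0 columns of other samples.

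With 1 value per genotype no test was run. A row counted as past the threshold at a difference of at least 1 in log2(RPKM + 1), which understates the change of low genes, with at least 1 RPKM in either genotype, leaving out 185 of 6791 rows. Steps between low RPKM values gave the library sizes, namely 10453032, 11196495 and 13887069 reads (wild type) and 11407616, 12164864 and 12294210 reads (ago1-27). The search for library sizes was tested on simulated data. In 678 rows, none of them an NF-YA gene, both values corresponded to whole reads of just 1 library in each genotype, at one shared transcript length and within 0.6 of the last deposited decimal or, where larger, within 1e-09 reads. Reads were estimated from RPKM, mean library sizes of 11845532 and 11955563 and transcript lengths of TAIR10.1, so the intervals are approximate and leave out variation between plants.

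Coordinates, transcripts and sequences come from the RefSeq assembly TAIR10.1. Of the identifiers, 6772 were found there and 19 were not. Target sites were searched without gaps on all transcripts, and any limit from 3 to under 5 gives the same 8 NF-YA genes. Identity is over pairwise alignments of coding sequences.

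All 10 NF-YA genes, every NF-YB, NF-YC and MIR169 gene and listed partner in the table, AGO1 and the 3 genes nearest to NF-YA2 were named by rule. AT1G54150, AT3G20920 and the tissue markers were added as neighbours or checks. The members, lists and the score limit of 4 were chosen with earlier results of these data known. The settings varied were the pseudocount (0.5 and 0.1), the filter (none, or at least 5 RPKM), the scale (median of ratios or quantile normalization) and the depth behind intervals (3 summed libraries), and, added after the data were seen, the table without rows from 1 library. Software was Biopython 1.88, scipy 1.17.1, pandas 2.3.3, numpy 2.4.6 and matplotlib 3.10.9 under Python 3.11.15.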

Additional observations from a re-analysis of the deposited data

How the results depend on the processing

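No paired analysis was possible because the table holds 1 value per genotype. Of the 8 NF-YA genes, 6 passed the threshold upward on the deposited scale, 7 with a pseudocount of 0.1, and 5 with RPKM of at least 5 (NF-YA10 was left out), with the median of ratios and with quantile normalization (NF-YA8 was at 0.67 and 0.90). Downward, 0 passed on the deposited scale and 1, NF-YA7, after either rescaling, at -1.33 and -1.04. The NF-YB and NF-YC genes past the threshold were 2, both lower, and 1 with RPKM of at least 5, with quantile normalization and without rows from 1 library per genotype, because the first and last of these left out NF-YB7 and quantile normalization put NF-YB2 just short of the threshold. Over all rows, 1442 passed on the deposited scale (748 higher, 694 lower), 2336 (1350 higher) with a pseudocount of 0.1, 2189 (219 higher, 1970 lower) on the median-of-ratios scale, and 395 higher and 1212 lower after quantile normalization. No NF-YA gene changed direction under any of these settings. With the depth of 3 summed libraries the interval was 12.4 to 16.2 for the ratio of NF-YA2 and 0.488 to 0.675 for that of NF-YA7. For NF-YA10 it was 4.11 to 9.54, which no longer overlapped that of NF-YA2. Depth limits NF-YA10 most, with about 9 wild-type reads in 1 library, and the spread between plants is unknown for every gene.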
